A study of Homo sapiens with 11 samples.

Results

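CTCF and the cohesin complex were followed through 10 genes in 3 human lung cell lines: CTCF and its paralog CTCFL, the ring subunits RAD21, SMC1A and SMC3, the STAG subunits STAG1, STAG2 and STAG3, the loading factor NIPBL and the release factor WAPAL (now named WAPL). The genes were chosen by symbol from 57815 genes listed in each RNA table. All 10 were found, and 9 of them were among the 19066 genes tested, which reached 1 FPKM (a level per length of transcript and per mapped fragment of the library) in at least 2 libraries. CTCFL was the member below that limit.

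Cohesin is a ring of proteins that encloses DNA. SMC1A and SMC3 form most of the ring, RAD21 closes it, and a STAG protein binds RAD21. NIPBL helps load the ring and drives the extrusion of chromatin loops, WAPL takes the ring off DNA, and extrusion tends to stall where CTCF is bound, which places many of the ends of chromatin domains. The same ring holds sister chromatids together from replication until they separate in mitosis.

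Small cell lung carcinoma, a neuroendocrine tumour of the lung, is represented by the cultured lines DMS153 and H209, and normal lung fibroblasts by the line MRC5. There were 3 RNA-seq libraries for DMS153, 2 for H209 and 3 for MRC5, and each line had 1 library of Hi-C, a method that maps which stretches of chromatin touch in the nucleus. Beyond line and cell type the labels give no treatment, genotype or passage, and each group is a single line, so that cell type and line cannot be told apart. In the RNA titles the first line is spelled DM153, and it was read as DMS153 after the cell line field, which was not tested. No label says that replicates are separate cultures, so the p-values speak of the spread among these libraries alone, and that spread may be technical.

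The neuroendocrine and fibroblast markers followed the labels. The summed FPKM of 6 neuroendocrine markers ranged from 1006 to 1077 in DMS153 and from 1040 to 1052 in H209, against 0.0474 to 0.167 in MRC5. The sum of 6 fibroblast markers ranged from 6.98 to 8.68 in DMS153 and from 2.98 to 3.00 in H209, against 6944 to 7662 in MRC5. The sum of 4 epithelial markers was 997 to 1091 in DMS153 and 767 to 771 in H209, against 94.6 to 106 in MRC5, where 2 of the 4 averaged at least 1 FPKM. The sum of 4 immune markers was 22.1 to 33.3 in MRC5, where 1 of them averaged at least 1 FPKM, and under 1 in the carcinoma lines. Libraries held 16462 to 16580 genes at 1 FPKM or more in DMS153, 15963 to 16053 in H209 and 13425 to 13560 in MRC5, at depths within 0.946 to 1.65 times that of MRC5 replicate 1. Annotated small RNA genes took 39.9 to 44.2% of the summed FPKM in DMS153 and at most 0.305% in the other lines. Mitochondrial genes took 4.42 to 6.08% in DMS153 and 11.2 to 13.2% in the other lines. This make-up was shared by all DMS153 libraries, so in every comparison with DMS153 it cannot be told apart from the line.

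Against MRC5, 7 of the 9 tested genes were called higher in DMS153 and 6 in H209, and none was called lower by limma. STAG3, called in DMS153, lay under 1 FPKM in all MRC5 libraries and passed the filter through the carcinoma lines, so its call is given as a description. At an unadjusted p under 0.05 and with no limit on size, all 9 were higher in DMS153 than in MRC5 and none lower, and in H209 8 were higher and 1, STAG1, was lower. A call needed a limma adjusted p under 0.05 and a log2 fold change, on log2(FPKM + 1), of at least 1 in size. Of all tested genes, 34.0% were called higher, 16.4% lower and 50.4% in either direction in DMS153 against MRC5, and 33.0% higher, 14.9% lower and 47.9% in either direction in H209 against MRC5. The median log2 fold change of the 9 genes was 2.24 in DMS153 and 1.57 in H209 against MRC5, where the median of all tested genes was 0.44 and 0.46. Between the carcinoma lines, STAG2 and STAG3 were higher in DMS153 and no other member was called, where 13.8% of all genes were called higher, 13.4% lower and 27.1% either way. Both carcinoma lines are set against the same MRC5 libraries, so these results are not independent of each other. In RNA from whole cultures, fewer cells that express a gene and less RNA per cell cannot be told apart.

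**Figure D1:**
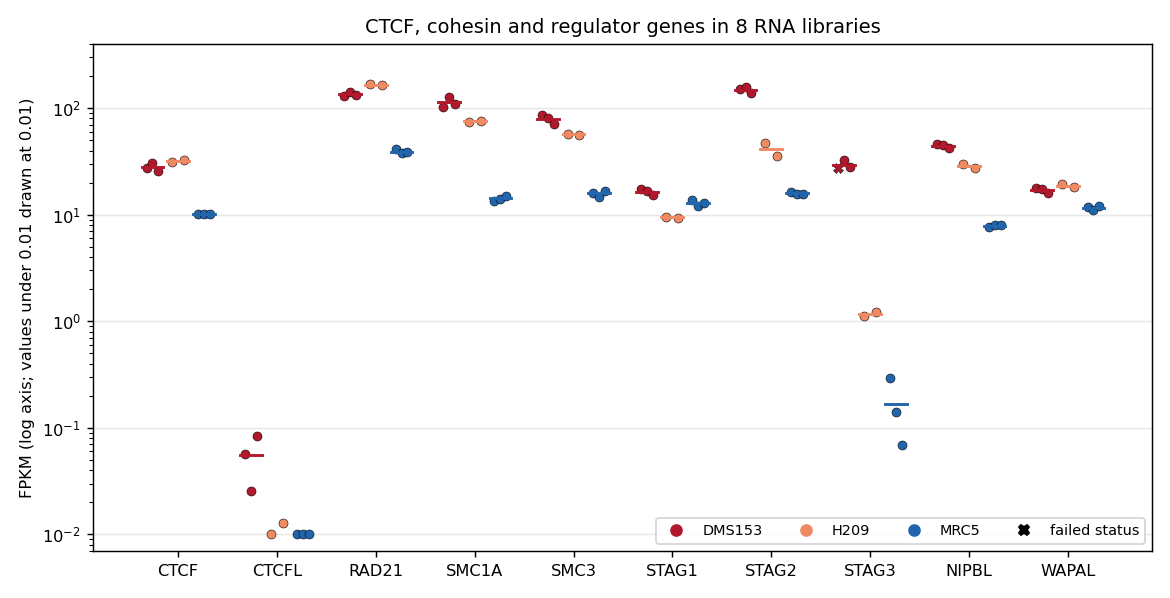
FPKM (log axis) of the 10 genes in each RNA library, with DMS153, H209 and MRC5 from left to right within a gene. Points are libraries, bars are group means, and the cross marks the DMS153 library in which STAG3 has a failed status. Of the 9 tested genes, all but STAG1 have the 5 carcinoma libraries above the 3 MRC5 libraries.

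The zinc finger protein CTCF, which binds insulators and domain ends, is encoded at chr16:67596310-67673086 (hg19, as all gene positions here). CTCF stood at 27.6, 30.7 and 25.8 FPKM in DMS153, at 31.4 and 32.9 FPKM in H209, and at 10.2, 10.1 and 10.1 FPKM in MRC5. All 5 carcinoma libraries lay above MRC5, and the H209 libraries lay above those of DMS153. CTCF was higher than in MRC5 by a log2 fold change of 1.38 ± 0.07 (SE) in DMS153 (limma adjusted p = 8.95e-08) and of 1.57 ± 0.08 in H209 (limma adjusted p = 9.66e-08). DMS153 minus H209 was -0.20, with a 95% interval from -0.38 to -0.01 and a limma adjusted p = 0.0544, which is not a call. Relative to the median gene, CTCF was 0.94 higher in DMS153 and 1.11 higher in H209 than in MRC5 on the log2 scale. Rescaling the libraries took the log2 fold change of CTCF just under 1, to 0.93 by median ratios and 0.99 as TPM in DMS153, and to 0.99 by median ratios in H209.

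CTCFL (also called BORIS, chr20:56071035-56100708), a testis paralog that shares the zinc fingers of CTCF, was near 0 throughout. It stood at 0.0571, 0.0258 and 0.0847 FPKM in DMS153 and at 0.000721 and 0.0128 FPKM in H209, and in MRC5 it was listed at 0 in 2 libraries and at 0.00024 FPKM in the other. CTCFL was therefore not tested.

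RAD21 (chr8:117858174-117887105), the subunit that closes the ring and is cut when chromatids separate, was the highest of the members in H209 and MRC5. RAD21 stood at 131, 142 and 132 FPKM in DMS153, at 170 and 163 FPKM in H209, and at 41.0, 37.8 and 38.5 FPKM in MRC5. Its level was lowest in all MRC5 libraries and highest in those of H209. RAD21 was higher than in MRC5 by a log2 fold change of 1.76 ± 0.06 in DMS153 and 2.06 ± 0.07 in H209, and DMS153 minus H209 was -0.30, short of the size needed for a call although its limma adjusted p was 0.00347.

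SMC1A (chrX:53401070-53449677), 1 of the paired ATPase arms of the ring, stood at 104, 128 and 109 FPKM in DMS153, at 74.2 and 75.8 FPKM in H209, and at 13.5, 14.0 and 15.0 FPKM in MRC5. Its partner arm SMC3 (chr10:112327449-112364394) stood at 86.5, 80.0 and 70.4 FPKM in DMS153, at 57.2 and 56.4 FPKM in H209, and at 16.1, 14.7 and 16.8 FPKM in MRC5. For both arms the lines did not overlap, with DMS153 highest and MRC5 lowest. SMC1A was higher than in MRC5 by a log2 fold change of 2.91 ± 0.08 in DMS153 and 2.32 ± 0.09 in H209, and SMC3 by 2.24 ± 0.08 in DMS153 and 1.78 ± 0.09 in H209. DMS153 minus H209 was 0.58 for SMC1A and 0.46 for SMC3, neither of them called, and both turned to the other sign when libraries were rescaled to TPM (-0.062 and -0.18).

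Within a library, the SMC1A to SMC3 ratio of FPKM averaged 1.43 in DMS153 and 1.32 in H209, against 0.895 in MRC5 (geometric means). Each carcinoma library lay above every MRC5 library, and the carcinoma lines overlapped (exact permutation p = 0.5, two-sided). The ratio of CTCF to RAD21 averaged 0.207 in DMS153 and 0.193 in H209, against 0.259 in MRC5, again with no overlap between either carcinoma line and MRC5 and an overlap between DMS153 and H209 (exact permutation p = 0.3, two-sided). With groups this small no exact test could go below 0.1. That value was reached by the 13 of 15 ratio comparisons whose libraries did not overlap (Benjamini-Hochberg adjusted p = 0.115 over the 15).

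SMC1A is also 1 of the genes whose promoter is shown, because an E2F motif lies close before the second of its 2 listed starts. The window of the first start holds no E2F match. E2F factors are known to drive genes of the cell cycle. RefSeq lists 2 starts for SMC1A, and the window of the second on GRCh38.p14, chrX:53422605-53422904 on the minus strand, runs from 250 bases before the start to 50 after it. Capitals mark matches to the E2F motif TTTNNCGC and to the GC box GGGCGG, on either strand.
SMC1A: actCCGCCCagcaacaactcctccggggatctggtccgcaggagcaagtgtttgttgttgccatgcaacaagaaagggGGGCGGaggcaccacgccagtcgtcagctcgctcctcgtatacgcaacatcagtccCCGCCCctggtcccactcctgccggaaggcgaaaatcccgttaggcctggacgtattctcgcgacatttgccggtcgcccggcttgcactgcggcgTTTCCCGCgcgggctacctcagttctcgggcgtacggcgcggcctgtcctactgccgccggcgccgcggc

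The STAG subunits are alternatives in the ring: a cohesin complex carries 1 of them. STAG1 and STAG2 serve dividing and resting cells of the body, and STAG3 serves meiosis. STAG2 (chrX:123094062-123556514) stood at 150, 157 and 139 FPKM in DMS153, at 46.8 and 35.6 FPKM in H209, and at 16.2, 15.5 and 15.8 FPKM in MRC5. The lines were wide apart, and relative to their mean the H209 libraries differed most from each other. STAG2 was higher than in MRC5 by a log2 fold change of 3.15 ± 0.10 in DMS153 (limma adjusted p = 2.41e-09) and 1.31 ± 0.11 in H209 (limma adjusted p = 2.85e-06), and higher in DMS153 than in H209 by 1.84 ± 0.11 (limma adjusted p = 6.88e-07). The call in H209 was lost under median ratio scaling, where the log2 fold change was 0.72.

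STAG1 (chr3:136055077-136471220) stood at 17.6, 16.6 and 15.1 FPKM in DMS153, at 9.57 and 9.33 FPKM in H209, and at 13.8, 12.2 and 12.9 FPKM in MRC5. The MRC5 libraries lay between the carcinoma lines without overlapping either. DMS153 minus MRC5 was 0.32 (95% interval 0.15 to 0.49, limma adjusted p = 0.00321) and H209 minus MRC5 was -0.42 (95% interval -0.61 to -0.22, limma adjusted p = 0.00141), both short of the size needed for a call. The first of these changed sign when libraries were rescaled by median ratios (-0.13) or to TPM (-0.086). DMS153 minus H209 was 0.74 (95% interval 0.54 to 0.93, limma adjusted p = 4.93e-05), also under 1.

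STAG3 (chr7:99775186-99819111) stood at 27.4, 32.8 and 27.8 FPKM in DMS153, at 1.13 and 1.22 FPKM in H209, and at 0.291, 0.140 and 0.0686 FPKM in MRC5. Its level in DMS153 was of the order of that of CTCF, whereas in the other lines it lay near or below the filter. In DMS153 replicate 1 the deposited status was FAIL, and the deposited interval, 0 to 1.21 FPKM, does not hold the value. The other DMS153 libraries had status OK, and leaving any 1 library out kept the log2 fold change against MRC5 between 4.62 and 4.78. STAG3 was higher in DMS153 than in MRC5 by 4.70 ± 0.10 (limma adjusted p = 2.32e-10) and than in H209 by 3.80 ± 0.11 (limma adjusted p = 1.09e-08). H209 minus MRC5 was 0.90 ± 0.11 and not called, but it passed with a pseudocount of 0.1 (2.34) and as TPM (1.35).

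Several listed genes share sequence or position with STAG3, and without strand information reads cannot be assigned between them. A GATS gene (ENSG00000239521.3) overlaps STAG3 by 20836 bp and averaged 32.8 ± 2.83 FPKM in DMS153 and 23.2 ± 0.519 in H209, against 5.16 ± 0.427 in MRC5 (SD). PVRIG, at the 3′ end, averaged 6.86 FPKM in DMS153 and 7.80 in H209, against 0.907 in MRC5. Both were high in H209, where STAG3 was low. The STAG3-like copy STAG3L5P averaged 23.4 FPKM in DMS153 and 24.9 in H209, against 4.05 in MRC5, and STAG3L2 averaged 11.6, 9.49 and 4.74 FPKM in the same lines. By mean level STAG3L2, STAG3L1 and STAG3L3 had the order of lines seen in STAG3, and STAG3L5P and the other listed copies did not. TENM1 overlaps STAG2 by 46762 bp and averaged 8.39 FPKM in DMS153 and 0.543 in H209, against 0.491 in MRC5. The part of shared reads in the STAG2 and STAG3 values was not tested.

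Of the summed FPKM of STAG1, STAG2 and STAG3, STAG2 held 76.0 to 77.0% in DMS153 and 77.1 to 81.4% in H209, against 53.5 to 55.8% in MRC5. STAG1 held 8.05 to 8.98% in DMS153 and 16.6 to 20.2% in H209, against 43.7 to 45.5% in MRC5. STAG3 held 14.0 to 15.9% in DMS153 and 1.97 to 2.64% in H209, against 0.239 to 0.961% in MRC5. STAG1 was thus close to STAG2 in MRC5 and the lesser of them in the carcinoma lines. Within a library, STAG2 exceeded STAG1 on average 9.05-fold in DMS153 and 4.32-fold in H209, against 1.22-fold in MRC5, with no overlap between any pair of lines (exact permutation p = 0.1, two-sided, the smallest these groups allow). The ratio is free of library scaling.

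Set against RAD21, STAG2 went opposite ways in the carcinoma lines. The STAG2 to RAD21 ratio was 1.15, 1.10 and 1.05 in DMS153, 0.276 and 0.218 in H209, and 0.396, 0.409 and 0.410 in MRC5. DMS153 lay above MRC5 and H209 below it, with no overlap (exact permutation p = 0.1 for each pair of lines, two-sided, the smallest possible). In DMS153 the 3 STAG genes together reached 182 to 206 FPKM beside 131 to 142 FPKM of RAD21. In H209 they reached 46.1 to 57.5 FPKM beside 163 to 170 FPKM of RAD21, and in MRC5 27.8 to 30.3 FPKM beside 37.8 to 41.0 FPKM.

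**Figure D2:**
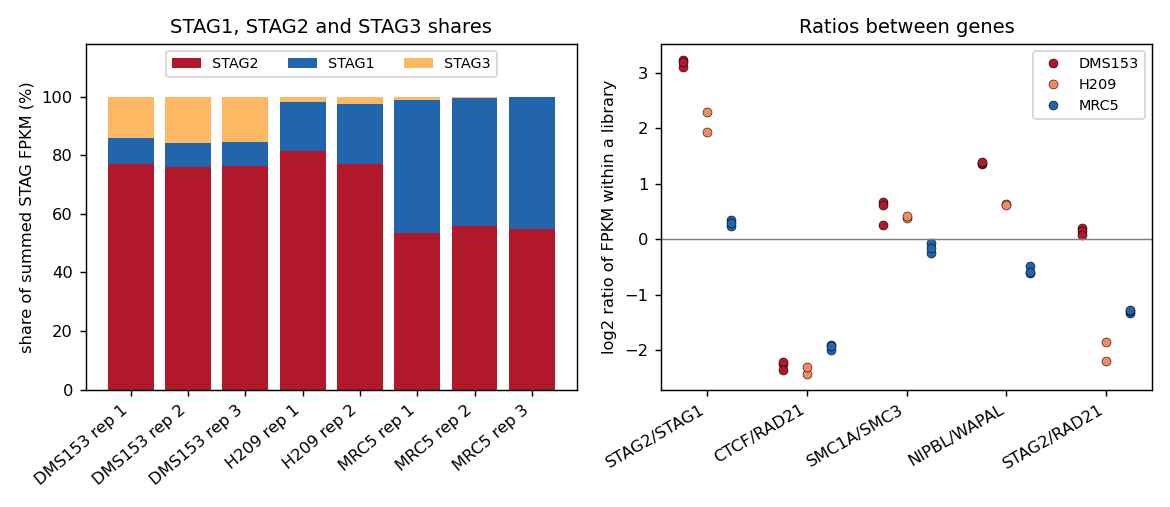
Left, the share (%) of the summed FPKM of STAG1, STAG2 and STAG3 held by each gene in every library. Right, log2 ratios of FPKM between 2 genes of the same library, 1 point per library, with DMS153, H209 and MRC5 from left to right. STAG1 holds 43.7 to 45.5% in MRC5 and at most 20.2% in the carcinoma lines, and the STAG2/RAD21 ratio lies above MRC5 in DMS153 and below it in H209.

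The promoters of the STAG genes are shown because these members differ most in how they vary between the lines. All are on GRCh38.p14 from RefSeq, 250 bases before to 50 after a start: STAG1 at chr3:136752329-136752628 on the minus strand, the third of 3 STAG2 starts at chrX:123961808-123962107 on the plus strand, and the first of 2 STAG3 starts at chr7:100177474-100177773 on the plus strand. Capitals mark matches on either strand to the GC box GGGCGG, the CCAAT box CCAAT and the E2F motif TTTNNCGC. In STAG1 the E2F match shares letters with a GC box, and in STAG3 a GC box and a CCAAT box share letters. The window of the first STAG2 start, which is not shown, holds no E2F match.
STAG1: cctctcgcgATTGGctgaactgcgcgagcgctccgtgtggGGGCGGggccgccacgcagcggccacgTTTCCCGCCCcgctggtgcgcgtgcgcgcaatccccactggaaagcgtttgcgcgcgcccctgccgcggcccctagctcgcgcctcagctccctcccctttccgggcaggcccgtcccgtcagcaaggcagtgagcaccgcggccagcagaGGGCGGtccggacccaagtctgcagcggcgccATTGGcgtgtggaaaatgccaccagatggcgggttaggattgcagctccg
STAG2: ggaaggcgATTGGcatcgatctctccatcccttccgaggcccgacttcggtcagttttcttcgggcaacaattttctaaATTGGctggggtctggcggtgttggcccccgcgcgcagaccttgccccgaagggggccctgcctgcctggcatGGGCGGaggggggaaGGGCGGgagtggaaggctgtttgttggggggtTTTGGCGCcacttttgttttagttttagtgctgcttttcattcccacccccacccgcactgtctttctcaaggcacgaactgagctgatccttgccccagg
STAG3: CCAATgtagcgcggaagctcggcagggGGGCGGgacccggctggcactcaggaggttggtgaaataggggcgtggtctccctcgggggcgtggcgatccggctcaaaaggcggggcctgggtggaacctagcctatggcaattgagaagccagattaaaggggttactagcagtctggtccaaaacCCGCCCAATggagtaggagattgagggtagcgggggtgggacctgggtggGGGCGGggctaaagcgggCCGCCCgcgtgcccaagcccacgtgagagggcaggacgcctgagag

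Promoter entries matched 9 of the 10 genes, with 15 starts, and RAD21 had none. A GC box was found for 9 of 9 members, where 45.0% of 35116 RefSeq promoters hold one. E2F motifs were found for 5 of 9 (CTCFL, NIPBL, SMC1A, STAG1 and STAG2), where 6.89% of promoters hold one, and CCAAT boxes for STAG1, STAG2, STAG3 and WAPAL, where 34.6% do. Members with several starts had more than 1 chance to hold a motif, so these shares are not like for like. A match describes the letters and shows no binding, and CTCFL holds an E2F match although its RNA was near 0.

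NIPBL (chr5:36876861-37066515), the loader, stood at 45.6, 45.4 and 42.4 FPKM in DMS153, at 29.8 and 27.7 FPKM in H209, and at 7.75, 7.96 and 7.97 FPKM in MRC5. WAPAL (chr10:88195013-88281572), the release factor, stood at 17.8, 17.5 and 16.1 FPKM in DMS153, at 19.3 and 18.1 FPKM in H209, and at 11.8, 11.1 and 12.0 FPKM in MRC5. NIPBL thus spread widely over the lines, and WAPAL only narrowly. NIPBL was higher than in MRC5 by a log2 fold change of 2.35 ± 0.06 in DMS153 and 1.74 ± 0.07 in H209. WAPAL minus that in MRC5 was 0.52 ± 0.07 in DMS153 and 0.64 ± 0.08 in H209, not called, and close to the median gene (0.08 and 0.17 above it).

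The ratio of NIPBL to WAPAL averaged 2.60 in DMS153 and 1.54 in H209, against 0.677 in MRC5. NIPBL exceeded WAPAL in all 5 carcinoma libraries, and WAPAL exceeded NIPBL in all 3 MRC5 libraries (exact permutation p = 0.1 for each pair of lines, two-sided, the smallest possible). DMS153 minus H209 was 0.61 ± 0.07 for NIPBL and -0.12 ± 0.08 for WAPAL, neither called, and the first turned to -0.021 as TPM and the second to 0.013 under median ratios.

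**Figure D3:**
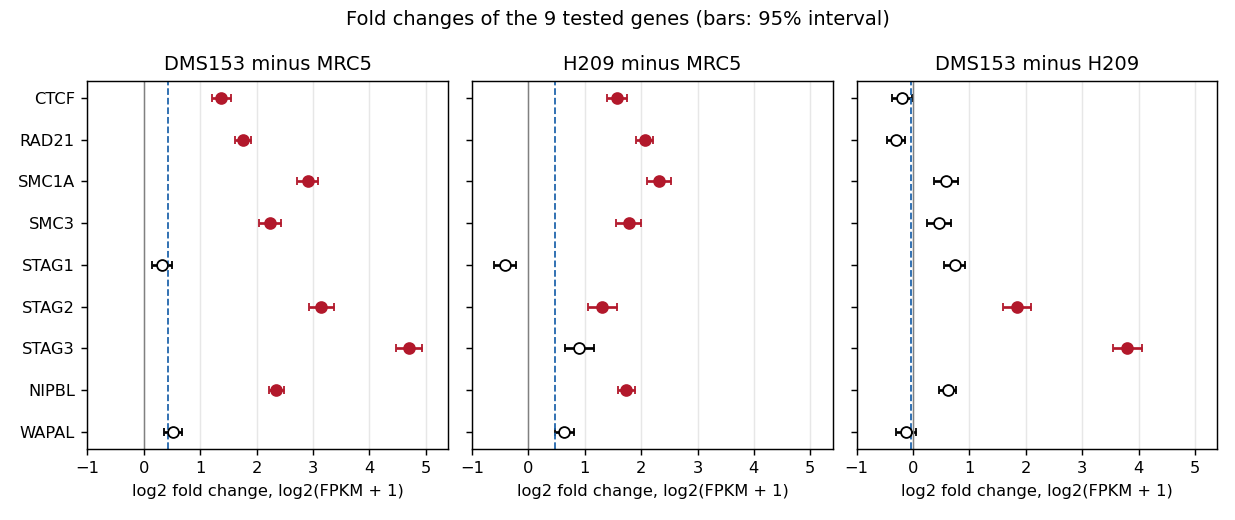
Log2 fold change (log2 of FPKM + 1) of the 9 tested genes in DMS153 minus MRC5, H209 minus MRC5 and DMS153 minus H209, with 95% intervals. Filled points are called, open points are not, and the dashed line is the median of all 19066 tested genes. STAG1 and WAPAL are the members not called in any panel.

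Ordered by level, STAG2 came first in DMS153 at 149 ± 9.18 FPKM, overlapping RAD21 at 135 ± 6.30 (SD, n = 3), followed by SMC1A, SMC3, NIPBL, STAG3, CTCF, WAPAL, STAG1 and CTCFL. STAG3 and CTCF overlapped there, as did WAPAL and STAG1, and the other neighbours in the order did not. In H209 the order was RAD21 at 167 ± 4.36 FPKM (SD, n = 2), SMC1A, SMC3, STAG2, CTCF, NIPBL, WAPAL, STAG1, STAG3 and CTCFL, with no overlap between neighbours. In MRC5 it was RAD21 at 39.1 ± 1.67 FPKM (SD, n = 3), SMC3, STAG2, SMC1A, STAG1, WAPAL, CTCF, NIPBL, STAG3 and CTCFL, with overlaps of SMC3 with STAG2 and of SMC1A with STAG1. In all 3 comparisons no tested member had libraries of 1 line overlapping those of the other, as was so for 87.3% of all genes in DMS153 against MRC5, 88.1% in H209 against MRC5 and 82.3% in DMS153 against H209.

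Of 20 other genes that act on cohesin, 15 rose in DMS153 and 15 in H209 against MRC5, beside 34.0% and 33.0% of all genes tested, and limma called none lower. Among them SGOL1 (0.349), ESCO2 (0.813), ESPL1 (0.596), GSG2 (0.439) and DSCC1 (0.326) averaged under 1 FPKM in MRC5. They passed the filter through the carcinoma lines where they were high, so their calls are given as a description. At an unadjusted p under 0.05 with no limit on size, PPP2R1A was lower in DMS153, and no regulator was lower in H209. The median log2 fold change of the 20 was 2.53 in DMS153 and 2.32 in H209, beside 0.44 and 0.46 over all genes. In DMS153 against MRC5, 13 were higher under median ratio scaling and 14 as TPM, where 5076 and 5651 of all 19066 genes were. PPP2R1A was called lower under both. Quantile normalization called 12 higher, and the scaling without small RNA and mitochondrial genes 17, where 4242 and 7619 of all genes were. In DMS153 the largest belonged to BUB1, a spindle checkpoint kinase that marks centromeres for cohesin protection, at 49.4 FPKM against 1.04 in MRC5, and to the mitotic kinase PLK1 at 63.2 FPKM against 1.96. The smallest calls there were ESCO1, an acetyltransferase of SMC3, at 11.6 FPKM against 4.00 in MRC5, and the histone kinase GSG2 (haspin) at 2.26 FPKM against 0.439.

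In H209 the largest belonged to the mitotic kinase AURKB, at 51.5 FPKM against 1.40 in MRC5, and to CDCA5 (sororin, which counters WAPL) at 43.2 FPKM against 1.30. The smallest were ESCO1 at 11.5 FPKM against 4.00 in MRC5, and MAU2, the partner of NIPBL, at 38.6 FPKM against 12.8. Not called in DMS153 were MAU2, PDS5A, HDAC8, CHTF8 and PPP2R1A, named after their values were seen. Between the carcinoma lines, GSG2 alone of the 20 was called, lower in DMS153 at 2.26 FPKM against 6.11 in H209. Under median ratio scaling GSG2 was not called, and PDS5B, which helps release cohesin and keep it on DNA, was the 1 called, higher in DMS153. As TPM, 7 of the 20 were called lower in DMS153 and 0 higher. Of all 19066 genes, 6319 were called lower there and 1782 higher, so the share of the list called lower was near that of all genes. Many of these regulators are genes of dividing cells, and the sum of 4 cycling markers was 400 to 473 FPKM in DMS153 and 451 to 484 in H209, against 46.6 to 50.8 in MRC5. The part of cell cycling in the levels of the ring and its regulators was not tested.

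Of 18 CTCF partners, which are proteins known to bind CTCF or to share its sites, 10 rose and 1 fell in DMS153 against MRC5, beside 34.0% and 16.4% of all genes tested. TOP2A, the topoisomerase of dividing cells, stood at 184 FPKM in DMS153 against 4.07 in MRC5, and PARP1, which modifies CTCF, at 280 FPKM against 19.8. NPM1, a nucleolar protein, fell to 415 FPKM in DMS153, against 1222 in MRC5, and the smallest rise was that of the remodeller CHD8, at 37.0 FPKM against 15.1. In H209, 9 of the 18 rose, beside 33.0% of all genes, and limma called none lower, although NPM1 was lower at an unadjusted p under 0.05. Median ratio scaling left 5 of the 18 higher in H209 and called NPM1 lower. Of all 19066 genes, 4261 were then higher and 4317 lower, so the share of the list called higher was near that of all genes. TPM and the scaling without small RNA and mitochondrial genes each called 12 higher, where 7939 and 7270 of all genes were. The rises were led by TOP2A at 60.8 FPKM against 4.07 in MRC5 and the zinc finger protein MAZ at 303 FPKM against 38.0. ADNP and YY1 had the smallest rises, at 40.3 FPKM against 19.2 and at 54.3 FPKM against 25.6. Between DMS153 and H209, 4 of the 18 were called, a share near the 27.1% of all genes, so that the count says nothing about the list. TOP2A and the methyl-CpG binder ZBTB33 (Kaiso, 32.0 FPKM against 11.9) were higher in DMS153, calls that both genes lost as TPM. YY1, a factor that joins enhancers and promoters, was lower at 19.6 FPKM in DMS153 against 54.3 in H209, as was the looping cofactor LDB1 at 37.3 FPKM against 84.4. Against MRC5, median ratio scaling left 6 of the 18 higher and 1 lower in DMS153. Of all 19066 genes, 5076 were then higher and 4389 lower, so here too the share called higher was near that of all genes.

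Of 10 genes of meiotic cohesin and the chromosome axis, 4 passed the filter, and RAD21L1, SYCP1, SYCP3, SYCE1, HORMAD1 and HORMAD2 stayed under it. SMC1B and SYCP2 reached the filter through DMS153 alone and so had to differ there, and their levels are given as a description. Beside STAG3, SMC1B, the meiotic form of SMC1A, stood at 39.4 ± 5.06 FPKM in DMS153 and 0.104 ± 0.0298 in H209, against 0.00573 ± 0.00533 in MRC5. REC8, the meiotic form of RAD21, stood at 31.0 ± 2.03 FPKM in DMS153 and 3.85 ± 0.876 in H209, against 4.58 ± 0.895 in MRC5. SYCP2, a protein of the chromosome axis, stood at 7.83 ± 1.10 FPKM in DMS153 and 0.828 ± 0.299 in H209, against 0.481 ± 0.103 in MRC5.

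No meiotic gene was called by limma in H209 against MRC5, where STAG3 was the 1 gene with an unadjusted p under 0.05 and was called as TPM and with a pseudocount of 0.1. The male germ line markers DDX4, DAZL, SYCP1 and TNP1 summed to 0.210 to 0.287 FPKM in DMS153 and 0.243 to 0.286 in H209, against 0.00433 to 0.0420 in MRC5, each under 1 FPKM in every line.

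Within 2 Mb of STAG2, 6 tested genes had a median log2 fold change of 2.01 in DMS153 minus MRC5, 0.39 in H209 minus MRC5 and 1.69 in DMS153 minus H209, and 3 of the 6 exceeded STAG2 in the last, whereas 0 of the 6 did in either comparison with MRC5. Within 2 Mb of STAG3, 87 tested genes had medians of 0.44, -0.14 and 0.47 in the same comparisons, and 1 of them exceeded STAG3 in DMS153 against MRC5 and none in DMS153 against H209. For CTCF, 26 of 102 neighbours had a higher log2 fold change than CTCF in DMS153 against MRC5 and 20 in H209 against MRC5. The 23 neighbours of STAG1 had medians of 0.81, 0.42 and 0.19 in the same 3 comparisons, the 7 of RAD21 0.96, -0.023 and -0.39, and the 19 of WAPAL 0.021, -0.25 and 0.076. The part of the surrounding region in the STAG2 level was not tested.

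By the root mean square difference of centred log2(FPKM + 1) over the 8 libraries, the genes most like CTCF were KPNA2, an importin (0.0579), the antisense RNA LIFR-AS1 (0.0619) and the RNA-binding protein HNRNPF (0.0628). KPNA2 averaged 89.0 FPKM in DMS153 and 103 in H209, against 32.9 in MRC5. LIFR-AS1 averaged 1.88 FPKM in DMS153 and 2.30 in H209, against 0.106 in MRC5. The genes most like STAG2 were the lipoxygenase ALOX5 (0.0812), FMR1, the fragile X gene (0.105), and the transcription factor TOX (0.115). FMR1 averaged 106 FPKM in DMS153 and 26.4 in H209, against 11.2 in MRC5. ALOX5 averaged 9.20 FPKM in DMS153 and 1.78 in H209, against 0.0411 in MRC5. Adding 1 FPKM shrinks the changes of genes near 0, so a small difference here need not mean like fold changes. Of 15318 genes compared, 1580 lay within 0.3 of CTCF, 2793 of WAPAL, 1286 of STAG1, 926 of RAD21, 684 of SMC3, 636 of NIPBL, 367 of SMC1A, 113 of STAG2 and 12 of STAG3. The limit was fixed and the log2 values were not scaled, so members with large differences between lines tend to have fewer genes within it. These counts therefore do not tell how common the pattern of a member across lines is.

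The Hi-C lists held 5023 domains in DMS153 and 3987 in H209, against 3701 in MRC5. Domains were smaller in DMS153, with a median of 240 kb (quartiles 140 and 420), than in H209 with 300 kb (160 and 560) or MRC5 with 300 kb (180 and 540). Domains of at least 1 Mb made up 4.78% in DMS153 and 10.8% in H209, against 10.6% in MRC5, and those of at most 100 kb made up 13.2%, 9.66% and 7.94% in the same lines. Together the domains covered 58.9% of the span between the outermost domain ends of each chromosome in DMS153 and 61.1% in H209, against 56.8% in MRC5. DMS153 had more domains than MRC5 on 22 of 22 autosomes and a smaller median on all 22, and it had more than H209 on 22 and a smaller median on 21. H209 had more domains than MRC5 on 22 autosomes, with a smaller median on 10 and a larger one on 6. Each line has 1 Hi-C library, and its sequencing depth is not given in the sources used here, so that line and library cannot be told apart and no test was made.

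Set beside the domain numbers, the RNA levels fell into different orders. SMC1A, SMC3, STAG2, STAG3 and NIPBL followed the order of the domain numbers, highest in DMS153, lower in H209 and lowest in MRC5. As TPM, DMS153 minus H209 turned negative for SMC1A (-0.062), SMC3 (-0.18) and NIPBL (-0.021), so that the order of these lines for the 3 genes depends on this scaling. The other alternatives kept the sign for these genes. The summed FPKM by which TPM divides held 39.9 to 44.2% small RNA genes in DMS153 and at most 0.305% in H209. CTCF, RAD21 and WAPAL were highest in H209 and lowest in MRC5, and STAG1 was highest in DMS153 and lowest in H209. The order of DMS153 and H209 for WAPAL (0.013 under median ratio scaling) and of DMS153 and MRC5 for STAG1 (-0.13 under median ratio scaling) also turned. With 3 lines no relation between RNA level and domain number can be tested.

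**Figure D4:**
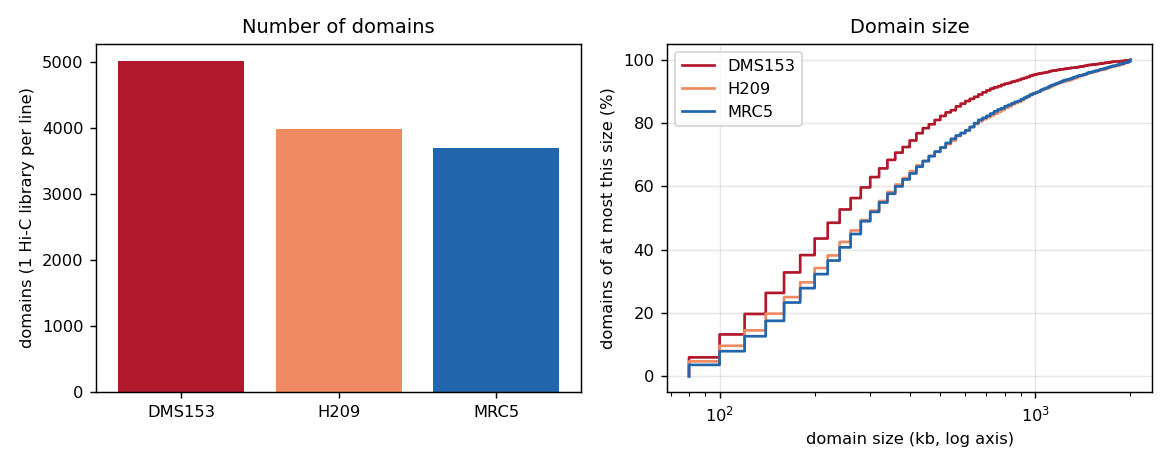
Left, number of domains in the single Hi-C library of each line. Right, cumulative share (%) of domains by size (kb, log axis). The DMS153 curve lies to the left of the others, with medians of 240 kb in DMS153, 300 kb in H209 and 300 kb in MRC5.

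The members themselves lay differently in the domains. STAG1 lay in a domain of 960 kb, chr3:135780000-136739998, that was called with the same ends in all 3 lines. STAG2 was crossed by domain ends in all lines and touched 3 domains in DMS153 and 3 in H209, against 2 in MRC5, where a 520 kb domain reached its first part from upstream. The STAG2 5′ end lay 14.1 kb from the nearest domain boundary in DMS153 and H209, against 146 kb in MRC5. CTCF lay whole inside domains of 140 kb in DMS153 and 100 kb in H209, against 120 kb in MRC5. No difference of STAG1 RNA between lines was called, and a relation of its domain to its RNA level was not tested.

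The 5′ end of NIPBL lay 3.14 kb from a domain end in all 3 lines, and that of SMC3 7.45 kb from one. SMC1A lay in a domain of 240 kb in DMS153 and of 140 kb in H209, and in none in MRC5. RAD21 lay inside a domain in MRC5 alone (280 kb) and STAG3 in H209 alone (100 kb), whereas WAPAL lay in one of 220 kb in DMS153, in none in H209 and in one of 840 kb in MRC5. CTCFL was crossed by an end at the same place in all lines, with a 140 kb domain reaching the 3′ side of the gene in DMS153 and in H209, against a 720 kb domain on its 5′ side in MRC5.

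Counted over the members, the 5′ end lay within 20 kb of a boundary for 3 of 9 genes of known strand in DMS153 and 4 in H209, against 3 in MRC5. Of 12362 tested genes of known strand, 25.8% did in DMS153 and 22.5% in H209, against 21.3% in MRC5. Whole inside 1 domain lay 4 of the 10 members in each line, beside 39.5% of genes in DMS153, 40.6% in H209 and 39.9% in MRC5. A boundary fell within 4 members in DMS153 and 4 in H209, against 3 in MRC5, beside 18.2%, 15.7% and 15.1% of genes. These shares for members are close to the background or rest on so few genes that they show nothing particular to them.

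**Figure D5:**
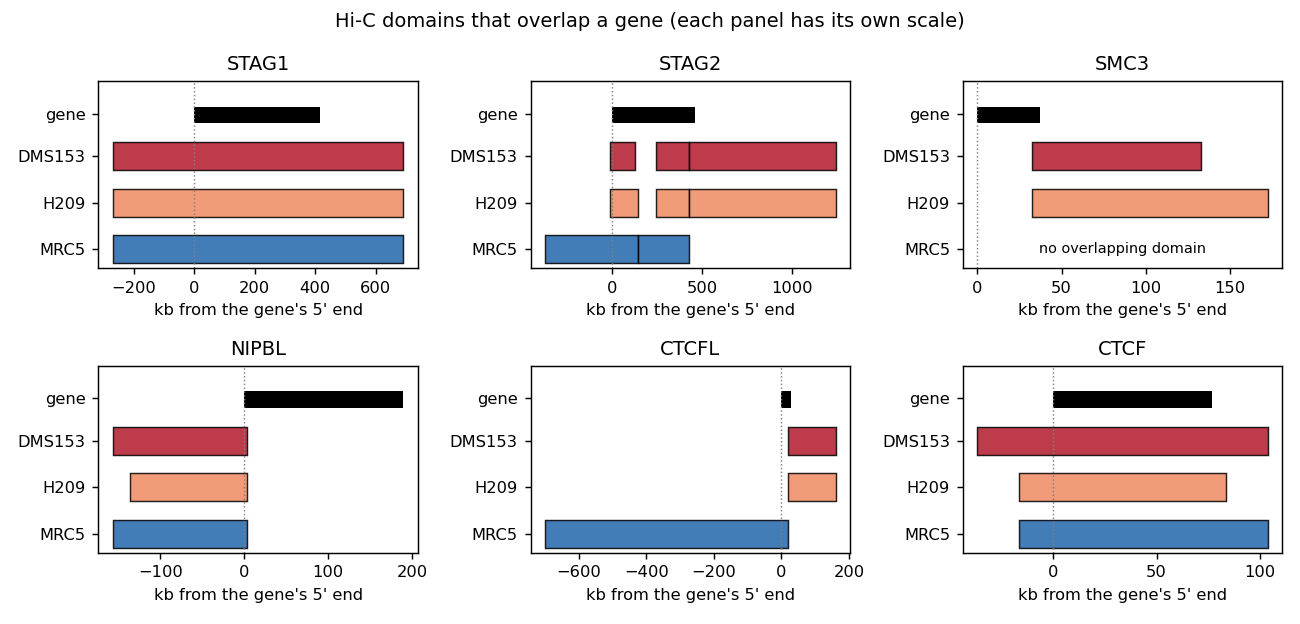
Hi-C domains that overlap 6 of the members in DMS153, H209 and MRC5, in kb from the 5′ end of the gene, with the gene as a black bar and each panel on its own scale. STAG1 has the same 960 kb domain in all lines, and STAG2 is crossed by ends in each.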

How the data were processed

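RNA-seq gave 8 tables and Hi-C 3 domain lists. Per the file headers, the deposited RNA tables hold FPKM, its confidence interval and a status per gene. Per the submitters' processing notes, Bowtie2, TopHat2 2.1.0, Cufflinks 2.2.0, HOMER 4.8 and hg19 were used, with roles not given. The Hi-C lists carry a deposited score per domain, whose meaning is not stated; it only ranked domains in alternatives. RNA selection and strand are not stated in these sources, and relative depth was read from low values.

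Values were log2(FPKM + 1). limma 3.58.1 (R 4.3.3, eBayes with trend) was fitted to all 8 libraries with line as the factor (5 residual degrees of freedom) over 19066 genes with at least 1 FPKM in at least 2 libraries, and p-values were Benjamini-Hochberg adjusted over all of them. The fit was tested on simulated data. The deposited 95% intervals of members at 1 FPKM or more with status OK (68 of 80 values) had half-widths of 2.97 to 35.5%. The symbol CHTF8 stands for 2 listed genes, of which ENSG00000168802.8 was used. Ratios within a library were compared by exact permutation. Domain ends within 20 kb were merged into 1 boundary. Motifs were searched in RefSeq promoters of GRCh38.p14.

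The genes and lists were chosen with earlier results of these data known. All members are named, with the 3 genes most like CTCF and STAG2 and, of each list, the called genes with the 2 highest and 2 lowest log2 fold changes. Alternatives were another pseudocount, other filters, 4 rescalings, genes of status OK only, no trend, each pair of lines alone, the replicate number as a block, each replicate left out, 2 selections by domain score, other limits for merging domain ends and autosomes alone.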

Additional observations from a re-analysis of the deposited data

Results flagged for a closer look

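For 4 measurements the carcinoma lines differed by a call or lay on opposite sides of MRC5 without overlap. Other members differed by less: DMS153 minus H209 was 0.61 for NIPBL, 0.58 for SMC1A, 0.46 for SMC3 and -0.30 for RAD21. Each of these had a limma adjusted p under 0.05 and fell short of the size for a call, whereas CTCF and WAPAL did not reach that p. The STAG2 to STAG1 and NIPBL to WAPAL ratios also differed between the carcinoma lines without overlap. STAG2 was higher in DMS153 than in H209 by a log2 fold change of 1.84, and STAG3 by 3.80, both called by limma in the direct comparison of the lines. The MRC5 libraries cancel from these log2 fold changes, but they enter the error and the p-values, since the fit held all libraries. STAG1 lay above MRC5 in all 3 DMS153 libraries and below it in both H209 libraries, and DMS153 minus H209 was 0.74, with a limma adjusted p of 4.93e-05 but under the size needed for a call. The STAG1 difference from MRC5 in DMS153 changed sign under 2 rescalings. The log2 ratio of STAG2 to RAD21 lay above MRC5 in every DMS153 library and below it in every H209 library, and DMS153 minus H209 was 2.16 (exact permutation p = 0.1, two-sided, the smallest these groups allow). No group held 4 or more libraries, so single libraries were not screened.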

How the results depend on the processing

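Of 27 log2 fold changes, those called in DMS153 against MRC5 kept their call under all alternatives that gave a value (STAG3 gives none without genes of a failed status) except CTCF, at 0.93 under median ratio scaling and 0.99 as TPM. STAG1 reversed there, at -0.13 and -0.086. In H209 against MRC5, CTCF (0.99) and STAG2 (0.72) lost their call under median ratio scaling, and STAG3 gained one with a pseudocount of 0.1 (2.34) and as TPM (1.35), which gave the meiotic list 1 call under each. In DMS153 against H209, TPM scaling reversed SMC1A (-0.062), SMC3 (-0.18) and NIPBL (-0.021), and median ratio scaling reversed WAPAL (0.013). TPM scaling moved the median gene there to -0.60, against -0.04 as deposited, and the calls over all genes to 8101 (1782 higher and 6319 lower), against 5169 (2622 and 2547); it called 7 cohesin regulators and 7 CTCF partners, all lower in DMS153. Quantile normalization called 2 cohesin regulators there, 1 higher and 1 lower. Rescaling moved the median gene in DMS153 against MRC5 to between -0.03 and 0.66, with 48.9 to 75.3% of calls higher against 67.5% as deposited, and in H209 against MRC5 to between 0.03 and 0.70, with 49.7 to 75.0% against 68.9%. CTCF partners called in DMS153 against MRC5 numbered 7 under median ratio scaling, where 9465 of all 19066 genes were called. Without genes of a failed status, 1 member, STAG2, was called in DMS153 against H209. With a pseudocount of 1 the log2 ratio of NIPBL to WAPAL differed by 1.84 in DMS153 minus MRC5, 1.10 in H209 minus MRC5 and 0.73 in DMS153 minus H209.

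Without the domains below the lower quartile of the score the median size was 260 kb in DMS153 and 320 kb in H209, and the covered shares were 45.9% in DMS153 and 47.8% in H209, against 41.9% in MRC5. With as many top-scoring domains as MRC5 has, the median in DMS153 was 260 kb, and the shares were 45.0% in DMS153 and 57.6% in H209. On autosomes alone they were 59.6% in DMS153 and 61.7% in H209, against 57.7% in MRC5.

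Leaving out each replicate gave 7 members called in DMS153 against MRC5, 6 in H209 against MRC5 and 2 in DMS153 against H209 each time. Deviations of same-numbered libraries correlated only weakly, from -0.0118 to 0.123. Each library numbered 1 or 2 correlated best with one of its own number, and those numbered 3 did not. No label states a pairing by replicate number. With the number as a block, limma called 7, 6 and 2 members, and STAG2 minus that in MRC5 was 1.29 in H209. The deposited intervals were wide for CTCFL in all lines and for STAG3 in MRC5, and the part of depth was not tested.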
